A study of Mus musculus with 8 samples.

Results

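A set of 761 chromatin regions carried an ATAC-seq peak summit in AML246 mouse acute myeloid leukaemia cells before PU.1 was restored, had none at 3 times during its restoration, and had one again at both 8 and 12 days after the restoring drug was withdrawn. They were chosen from 68800 regions, made by extending the summits of 8 libraries by 150 bp to each side and merging those that overlapped. A region is called open in a library that has a summit in it and not open otherwise. Because a missing summit is a peak that was not called, "not open" does not show closed chromatin. The members made up 1.11% of all regions, and 19.7% (exact 95% interval 18.4 to 21.0) of the 3866 regions, 5.62% of all, that were called at day 0 and missing from the lists of days 4, 8 and 12.

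AML246 cells were grown in IMDM with fetal calf serum and IL-3, and 0.1 µg/mL doxycycline (Dox) was present from day 0 to day 12 of a 24 day course. Per the labels, Dox restored PU.1 and its withdrawal brought back the PU.1 knockdown; the labels used here do not name the construct. The 8 groups held 1 library each: untreated cells at day 0, cells after 4, 8 and 12 days on Dox, CD11b-high cells sorted at day 12, and cells 4, 8 and 12 days off Dox after those 12 days. All but the CD11b-high library came from total viable cells, and 50000 cells went into each. With 1 library per group there is no replicate error, so no test between conditions was made. Intervals below are exact (Clopper-Pearson) 95% intervals for shares and Woolf intervals for odds ratios; both reflect counting error alone, and regions close to each other are not independent of one another.

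PU.1, encoded by Spi1, is an ETS-family transcription factor that binds purine-rich DNA and is required for the formation of macrophages, neutrophils and B cells. In progenitors it is known to counteract the erythroid program led by GATA1, and low PU.1 activity is a recurrent feature of myeloid leukaemia. ATAC-seq marks DNA that a transposase can reach, which is chiefly active promoters and enhancers.

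A promoter table of the same build (RefSeq, GRCm38.p6) let sequence be shown for the members at gene starts; distal members had none to show. Of the 761 members, 70 overlapped a window from 250 bases before to 50 bases after a start, or 0.693% of the 10101 regions of all kinds that did so. The 250 bases before the start are printed 5′ to 3′ on the gene's strand, with every match to 3 motifs in capitals, whichever strand it lies on: CAGCTG (an E-box bound by TAL1-type factors), GAGGAA (purine-rich core bound by PU.1 and other ETS factors; TTCCTC on the other strand) and AGATAA (the site of GATA factors; TTATCT on the other strand). Epor, the erythropoietin receptor (chr9:21963577-21963826, minus strand), and Sptb, erythroid beta-spectrin (chr12:76710548-76710797, minus strand), are shown as the erythroid list's members at a start, and Cdk6, a cyclin-dependent kinase of the G1 phase (chr5:3343643-3343892, plus strand), as the cell cycle list's. Apbb2 (chr5:66618818-66619067, minus strand) had the strongest promoter member with no restoration summit nearby. Hes6, a basic helix-loop-helix factor (chr1:91414039-91414288, minus strand), Pitx3, a homeobox factor (chr19:46148326-46148575, minus strand), B3gnt5, a glycosyltransferase (chr16:19759984-19760233, plus strand), and Draxin (chr4:148130699-148130948, minus strand) are shown for the CAGCTG described after them.
Epor: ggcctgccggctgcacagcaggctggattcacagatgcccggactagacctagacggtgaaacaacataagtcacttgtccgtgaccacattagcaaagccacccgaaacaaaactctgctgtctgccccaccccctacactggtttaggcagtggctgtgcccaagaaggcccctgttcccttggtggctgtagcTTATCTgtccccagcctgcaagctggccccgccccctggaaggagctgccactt
Sptb: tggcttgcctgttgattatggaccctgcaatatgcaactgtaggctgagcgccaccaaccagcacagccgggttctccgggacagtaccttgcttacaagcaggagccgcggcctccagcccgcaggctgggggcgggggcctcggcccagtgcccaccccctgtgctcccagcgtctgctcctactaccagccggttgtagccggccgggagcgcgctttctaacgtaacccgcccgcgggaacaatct
Cdk6: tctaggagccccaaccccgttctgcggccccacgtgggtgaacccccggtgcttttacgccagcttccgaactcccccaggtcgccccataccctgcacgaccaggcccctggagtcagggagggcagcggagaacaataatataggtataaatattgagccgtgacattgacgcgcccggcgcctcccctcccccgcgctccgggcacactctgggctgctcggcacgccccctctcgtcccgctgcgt
Apbb2: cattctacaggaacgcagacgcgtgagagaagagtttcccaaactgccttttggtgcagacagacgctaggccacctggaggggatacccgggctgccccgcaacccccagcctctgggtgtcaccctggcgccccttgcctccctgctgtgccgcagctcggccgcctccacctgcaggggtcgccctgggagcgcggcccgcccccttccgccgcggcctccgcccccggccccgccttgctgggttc
Hes6: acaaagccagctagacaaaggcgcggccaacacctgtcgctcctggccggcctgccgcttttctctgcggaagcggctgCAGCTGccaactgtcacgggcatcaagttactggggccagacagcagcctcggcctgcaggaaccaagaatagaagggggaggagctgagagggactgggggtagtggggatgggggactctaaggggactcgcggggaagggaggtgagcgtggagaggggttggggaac
Pitx3: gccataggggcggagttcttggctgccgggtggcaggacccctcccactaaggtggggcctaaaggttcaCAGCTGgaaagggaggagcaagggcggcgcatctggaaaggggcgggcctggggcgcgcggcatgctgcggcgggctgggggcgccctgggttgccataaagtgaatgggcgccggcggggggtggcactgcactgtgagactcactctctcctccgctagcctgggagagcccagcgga
B3gnt5: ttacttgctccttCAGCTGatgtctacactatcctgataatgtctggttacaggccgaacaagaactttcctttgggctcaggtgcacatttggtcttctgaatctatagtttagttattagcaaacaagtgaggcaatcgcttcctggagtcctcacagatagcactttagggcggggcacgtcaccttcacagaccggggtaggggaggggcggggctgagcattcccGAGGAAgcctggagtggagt
Draxin: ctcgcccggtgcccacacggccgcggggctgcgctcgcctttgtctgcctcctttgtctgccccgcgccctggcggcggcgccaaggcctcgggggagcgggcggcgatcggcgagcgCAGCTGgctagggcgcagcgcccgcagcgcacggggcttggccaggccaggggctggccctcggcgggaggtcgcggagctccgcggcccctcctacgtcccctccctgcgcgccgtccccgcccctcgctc

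The first base of the CAGCTG match lay 171 bases before the start of Hes6, 180 before that of Pitx3, 237 before that of B3gnt5 and 132 before that of Draxin. B3gnt5 also held a GAGGAA match 20 bases before its start, and Epor an AGATAA match on the other strand 54 bases before its start. The windows of Cdk6, Apbb2 and Sptb held none of the 3 motifs. The bases printed for Sptb do not overlap its member, whose summits lay 190 to 371 bases downstream of the start. The sequence of that member was thus not searched. The windows are not the members' own sequence, so a match need not lie inside the open region. The CAGCTG of B3gnt5, for one, lay upstream of its member at chr16:19760116-19760447. The shares that follow are of windows. Over the 250 bases before the start, CAGCTG was found in the windows of 18 of 70 members (25.7%, 16.0 to 37.6). It was found at 8.00% (2.99 to 16.6) of the 75 promoter regions lost and open at neither 8 nor 12 days off, at 10.9% of the 7298 promoter regions open in all 8 libraries, and at 13.0% of all 32851 promoters. GAGGAA was found at 21.4% of the members and 23.3% of all promoters, against 24 of the 48 (35.2 to 64.8%) promoter regions that showed the opposite course, gained on Dox and not open at 8 and 12 days off. CCGGAA, the ETS site of many active promoters, was found at 8.57% of the members, 25.6% of promoters open in all libraries and 12.0% of all promoters. AGATAA was found at 5.71% of the members and 9.99% of all promoters, and CCAAT at 24.3% and 33.8%. These were 12 motifs searched on both strands with no test, and the part of base composition in the shares was not tested. The median GC content was 61.8% at the members' promoters, 58.4% at those lost and open at neither later time, 60.8% at those open in all 8 libraries, 50.6% at those gained and then not open, and 52.4% at all promoters.

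The share of members open in a library that did not enter the rule was taken first at 4 days off Dox. There 609 of 761 members (80.0%, 77.0 to 82.8) were open, while 72.7% of all regions were. Regions lost on Dox but open at neither 8 nor 12 days off were open at 4 days off in 521 of 1907 cases (27.3%, 25.3 to 29.4), giving an odds ratio of 10.7 (8.69 to 13.1). Lost regions open at only 1 of the later times lay between, at 61.9% (59.0 to 64.6) of 1198. These classes were set by the calls at 8 and 12 days off, later times of the same withdrawal. A difference between them at 4 days off thus goes with the rule. The list of 4 days off was also the longest, with 51175 summits. The split between members and lost regions open at neither 8 nor 12 days off was similar over the whole range of day-0 score. It was 76.3% against 21.4% in the lowest tercile of lost regions by day-0 score. In the middle tercile it was 78.2% against 31.5%, and in the highest 82.9% against 31.4%. The deposited score was taken to be a −log10 p or q. A score grows with sequencing depth, so lists are compared by the rank of a score within its own list. The scores given for single members are each on the scale of their own list, and differences between lists in these are not read as changes.

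In CD11b-high cells of day 12, sorted for the integrin alpha chain that marks myeloid maturation, 74 of 761 members (9.72%, 7.71 to 12.1) were open, against 51.1% of all regions. The share was 4.98% (4.05 to 6.06) for lost regions open at neither later time, an odds ratio of 2.05 (1.5 to 2.82), and 82.4% (80.4 to 84.2) of the 1587 regions gained on Dox and not open at 8 and 12 days off. In the highest tercile of day-0 score the odds ratio was 1.18 (0.732 to 1.89), with 9.92% of members and 8.55% of the others open, so that in this tercile the interval spans equal odds. The CD11b-high cells were taken at day 12, a time at which the rule required no summit in total cells, so a low share in every lost class goes with the rule.

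**Figure D1:**
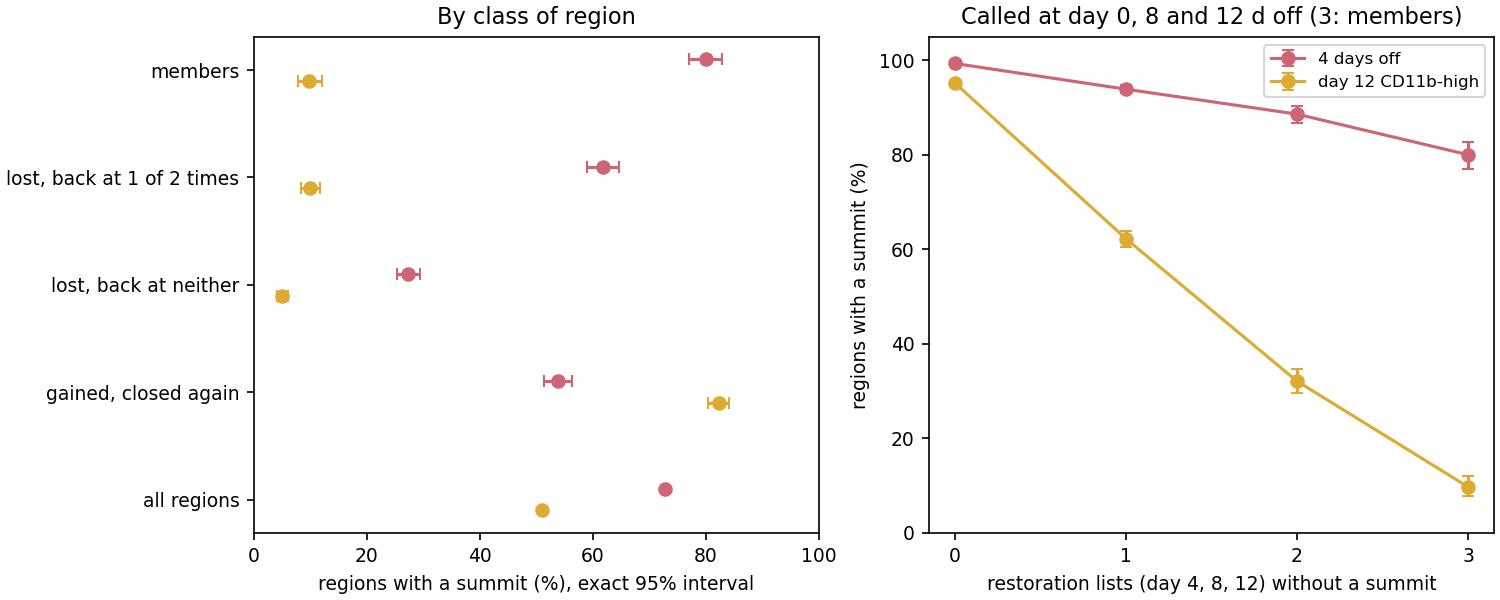
Share of regions with a summit (percent, with exact 95% intervals) at 4 days off Dox (red) and in CD11b-high cells of day 12 (yellow); left, by class of region, and right, for regions called at day 0 and again at both 8 and 12 days off, by how many of the lists of day 4, 8 and 12 lack a summit. Members stand at 80.0% and 9.72%; on the right the CD11b-high share runs from 95.2% with no list missing to 9.72% with 3 missing.

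Ordered by the number of restoration lists without a summit, the members are by the rule the far end of a larger set. In all, 25244 regions were called at day 0 and again at both 8 and 12 days off, of which 19774 were open at all 3 restoration times, 3329 missed 1, 1380 missed 2 and 761 missed all 3. Along that order the share open in CD11b-high cells was 95.2%, 62.3%, 32.1% and 9.72%, and the share open at 4 days off was 99.3%, 93.9%, 88.6% and 80.0%. The median day-0 score ran 23.1, 9.36, 7.42 and 6.33, so members were weak peaks before Dox was added. This order counts missing calls in lists that the rule uses, and the CD11b-high cells were sorted at day 12. A fall in the CD11b-high share along it thus goes with the rule. How far weak peaks being missed set the order was not tested. The step between a member and a region just outside the rule was a single called summit: 382 regions were open at day 4 only, 849 at day 8 only and 149 at day 12 only among the 3 restoration lists, with median scores there of 7.57, 6.38 and 4.94.

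On the score itself, members ranked low in each list that called them. Their median percentile was 23.5 at day 0, 37.6 at 4 days off (over the 609 open there), 34.0 at 8 days off and 24.3 at 12 days off, and 17.3 among the 74 open in CD11b-high cells. Only 81 members lay above their list's median at day 0, 197 at 8 days off and 82 at 12 days off. The lowest day-0 score was 1.33, next to the calling threshold, and 5 members scored under 2. Scores took few values, with 421 distinct ones at day 0 and 42 members sharing 3.81. Across members, the rank of the day-0 score went with that at 8 days off with a Spearman rho of 0.27 and with that at 12 days off with 0.23, and the 2 late libraries went together with 0.31 (n = 761 regions in each, no test). The order of the members by score at day 0 was thus only loosely that after withdrawal.

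**Figure D2:**
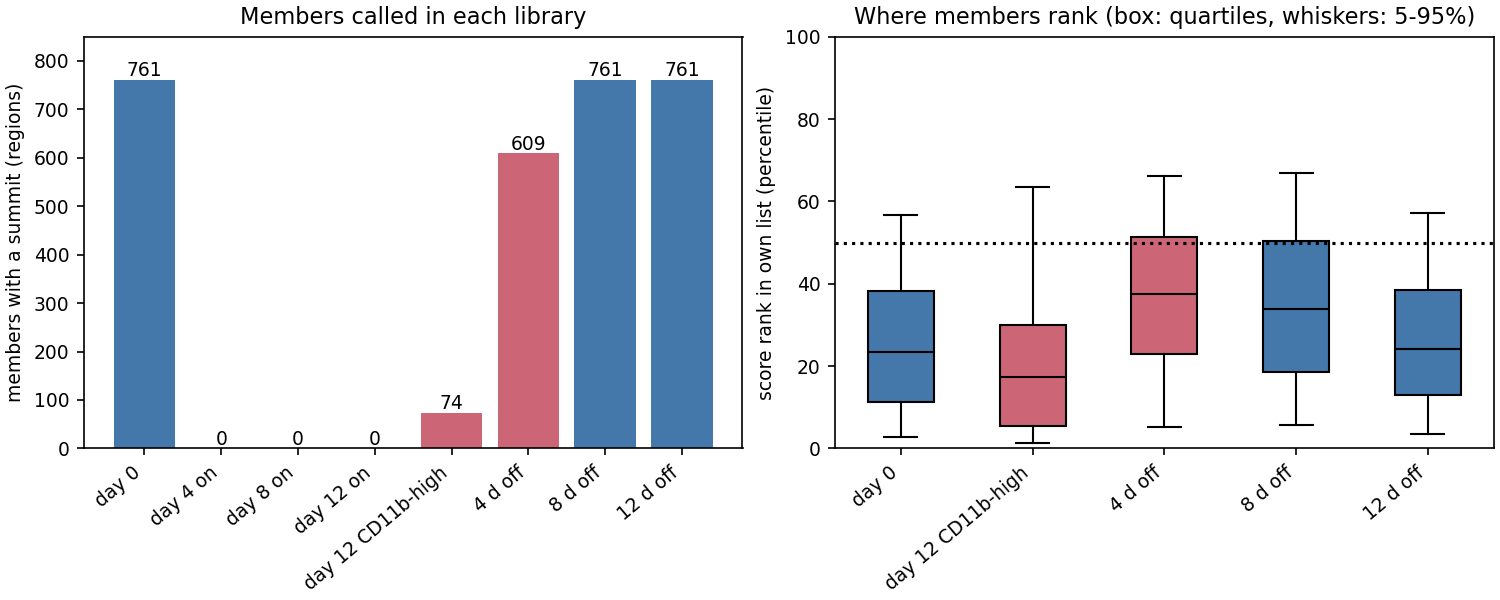
Left, number of the 761 members with a summit in each library, with libraries used by the rule in blue and the others in red; right, percentile of the members' score within each list, with boxes for quartiles, whiskers from 5 to 95% and a dotted line at the list median. The median percentile lies between 17.3 (CD11b-high) and 37.6 (4 days off).

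The summits returned close to where they had been. The median distance between the day-0 summit of a member and its summit at 12 days off was 35 bp, and at 60.8% of members it was at most 50 bp. Between 8 and 12 days off it was 34 bp. In regions open at day 0, at 8 and 12 days off and at all 3 restoration times it was 24 bp. A member is by construction a single merged region, which limits how far its summits can lie apart.

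The 152 members not open at 4 days off had a median score of 6.25 at 8 days off, against 8.93 for the 609 that were. Of all members, 64 were open in both of the libraries outside the rule, and 142 in neither. Members open in CD11b-high cells lay within 1 kb of a start site in 24.3% of cases (15.1 to 35.7), and the others in 13.1% (10.7 to 15.9).

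A summit of day 4, 8 or 12 lay within 1 kb of 109 members (14.3%), and the other 652 had none. The nearest such summit was 306 bp away at the closest, just outside the reach of merging, and 7415 bp away at the median; 38 members had one within 500 bp and 325 had none within 10 kb. At 59 of the 109, a neighbouring region was open at day 4, 8 and 12, and at 51 of these 59 that neighbour was open at day 0 as well. Leaving out the 109 left the shares at 81.0% open at 4 days off and 9.05% in CD11b-high cells. Members with such a neighbour overlapped a promoter window in 15.6% of cases, the others in 8.13%.

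Most members lay away from gene starts. The median distance to the nearest start was 17485 bp, beside 19191 bp for lost regions open at neither later time, 20218 bp for regions gained and then not open, and 4991 bp for regions open in all 8 libraries. Within 1 kb of either end of a protein-coding gene lay 11.8% of members (9.62 to 14.3), 13.3% of the lost regions open at neither time and 43.9% of regions open in all libraries. Another 44.9% lay inside a gene more than 1 kb from its ends and 43.2% outside genes. Over all regions the median distance to a start was 14446 bp, and 21.9% lay within 1 kb of a gene end, 41.9% inside a gene and 36.3% outside genes, so the members' share inside genes was near that of all regions. Exons and introns were not analysed here. A promoter window was overlapped by 9.20% of members (7.24 to 11.5) and by 3.93% (3.11 to 4.91) of lost regions open at neither time, beside 14.7% of all regions. Members were longer, with a median of 382 bp against 301 bp, and each merges summits of at least 3 libraries; counted instead by midpoints within 300 bp of a start, the shares were 9.07% (7.12 to 11.3) and 4.14% (3.29 to 5.14). A region open in all 8 libraries lay within 5 kb of 14.8% of members and 20.5% of those lost regions, and within 50 kb of 65.0% and 66.1%.

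**Figure D3:**
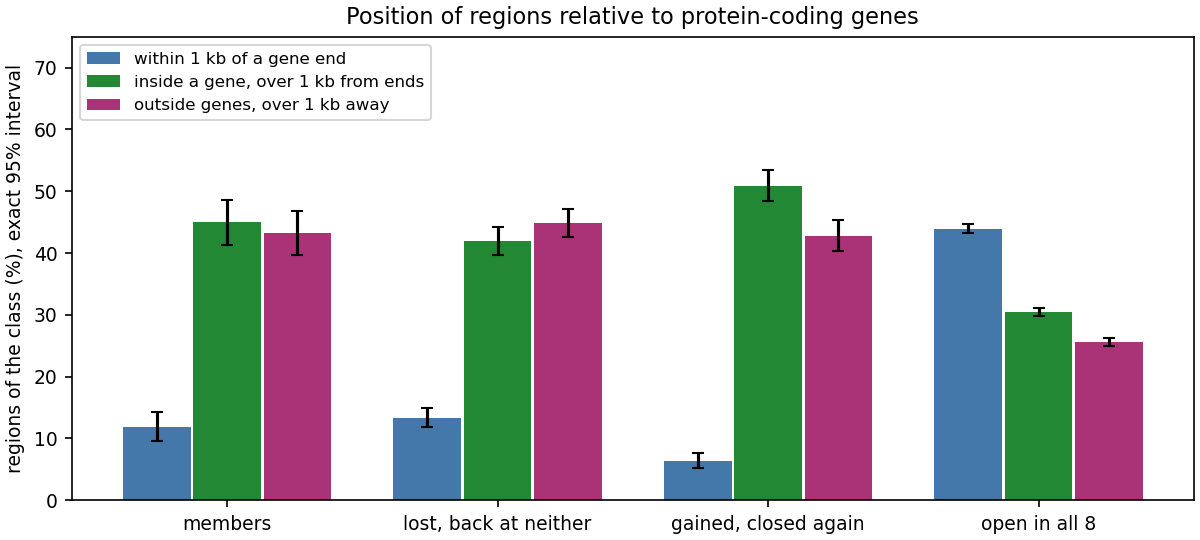
Percent of regions of each class (bars, with exact 95% intervals) within 1 kb of either end of a protein-coding gene, inside a gene more than 1 kb from its ends, or outside genes. Members stand at 11.8%, 44.9% and 43.2%, and regions open in all 8 libraries at 43.9%, 30.5% and 25.6%.

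Members were scattered over genes. The nearest protein-coding gene within 100 kb was taken for 696 members, 1.08% of the 64638 regions so assigned, and they fell to 664 genes; 633 genes had 1, 30 had 2 and Ppm1h had 3. Only 18 members, in 9 pairs, lay within 10 kb of another. At genes with a member, the promoter was open in all 8 libraries in 234 of 525 cases (44.6%, 40.3 to 48.9), against 46.4% for genes with lost regions open at neither later time and no member, and 54.6% for genes with regions but no member, which had fewer regions each.

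Ppm1h, a PP2C-type protein phosphatase, had 37 regions, of which 7 were lost on Dox; 3 of the 7 were members, 3 were open at neither 8 nor 12 days off and 1 at one of these times. The member at chr10:122608057-122608420, 69190 bp from the gene, scored 12.8 at day 0, 30.5 at 4 days off, 17.5 at 8 and 12.1 at 12. The second, at chr10:122619582-122619936, scored 4.94, 6.30 and 4.69 at day 0, 8 and 12 days off and had no summit at 4 days off. The third, at chr10:122958344-122958982 on the other side of the gene, scored 5.29, 13.9, 6.39 and 4.58 at day 0, 4, 8 and 12 days off. The promoter of Ppm1h was open in all 8 libraries.

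Of the genes with 2 members, those with the highest share of members among their regions were named, so high shares here were set by that choice. Other genes with 2 members had many more regions, such as Rere with 30 and Zfp516 with 29. Both regions of Hs6st3, a heparan sulfate sulfotransferase, were members, as were 2 of 3 at Il2, which encodes the T-cell cytokine interleukin 2, and 2 of 4 at Elmod3, Hnf4a, Luzp1, Serpinb9g and Tmem268. The Il2 member nearest the gene, at chr3:37128326-37128677, 2547 bp upstream of its start, scored 3.52 at day 0, 8.29 at 4 days off, 11 at 8 and 10.8 at 12. The members at Hnf4a, a nuclear receptor of liver and gut, lay inside the gene, at chr2:163540657-163541253 and chr2:163552590-163552992, and scored 7.23 and 12.1 at day 0, 7.08 and 11.2 at 8 days off and 5.03 and 6.93 at 12 days off. The remaining genes of this kind named by the rule were Mob1b and Nemf with 2 of 6 regions and Draxin and Kcng1 with 2 of 7. The 2 members at Tmem268 each overlapped a different annotated start of that gene and were 1178 bp apart.

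The strongest members with no restoration summit within 1 kb were ranked by the lowest of their percentiles at day 0, 8 and 12 days off. First was a distal region at chr10:44615593-44616171, 87324 bp from Prdm1, the repressor that directs plasma cell and other terminal differentiation; it scored 20.4 at day 0, 14.0 at 4 days off, 20.6 at 8 and 18.4 at 12, and the nearest restoration summit was 8240 bp away. The member in Gulp1, an engulfment adaptor, at chr1:44584758-44585124, scored 16.4, 3.35, 27.6 and 28.0 at day 0 and 4, 8 and 12 days off, which are percentiles 62.2, 3.30, 78.6 and 84.8 of those lists. The nearest restoration summit was 429444 bp away. The member in Snx30, a sorting nexin, at chr4:59819154-59819784, scored 14.7, 34.0, 30.0 and 16.2, which are percentiles 58.6, 82.5, 81.0 and 67.5, so its highest rank fell at 4 days off, where that of Gulp1 was lowest. The promoter member of Apbb2, an adaptor that binds the amyloid precursor protein, lay at chr5:66618713-66619036 and scored 13.5, 11.6, 18.6 and 15.3, with its summits 46 to 69 bp upstream of the start and no restoration summit within 78411 bp. Syt7, Rere, Mreg, Xrcc5 and Noc4l completed the 10 with one of Ppm1h, and all of these were open at 4 days off and none in CD11b-high cells. The Mreg member only just passed the neighbour limit, with a restoration summit 1114 bp away. A region 603 bp from it was open in 7 of 8 libraries, with 23.5, 13.3 and 13.8 at day 4, 8 and 12. Another, 202 bp from it, was open at day 0 alone, with 30.8.

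**Figure D4:**
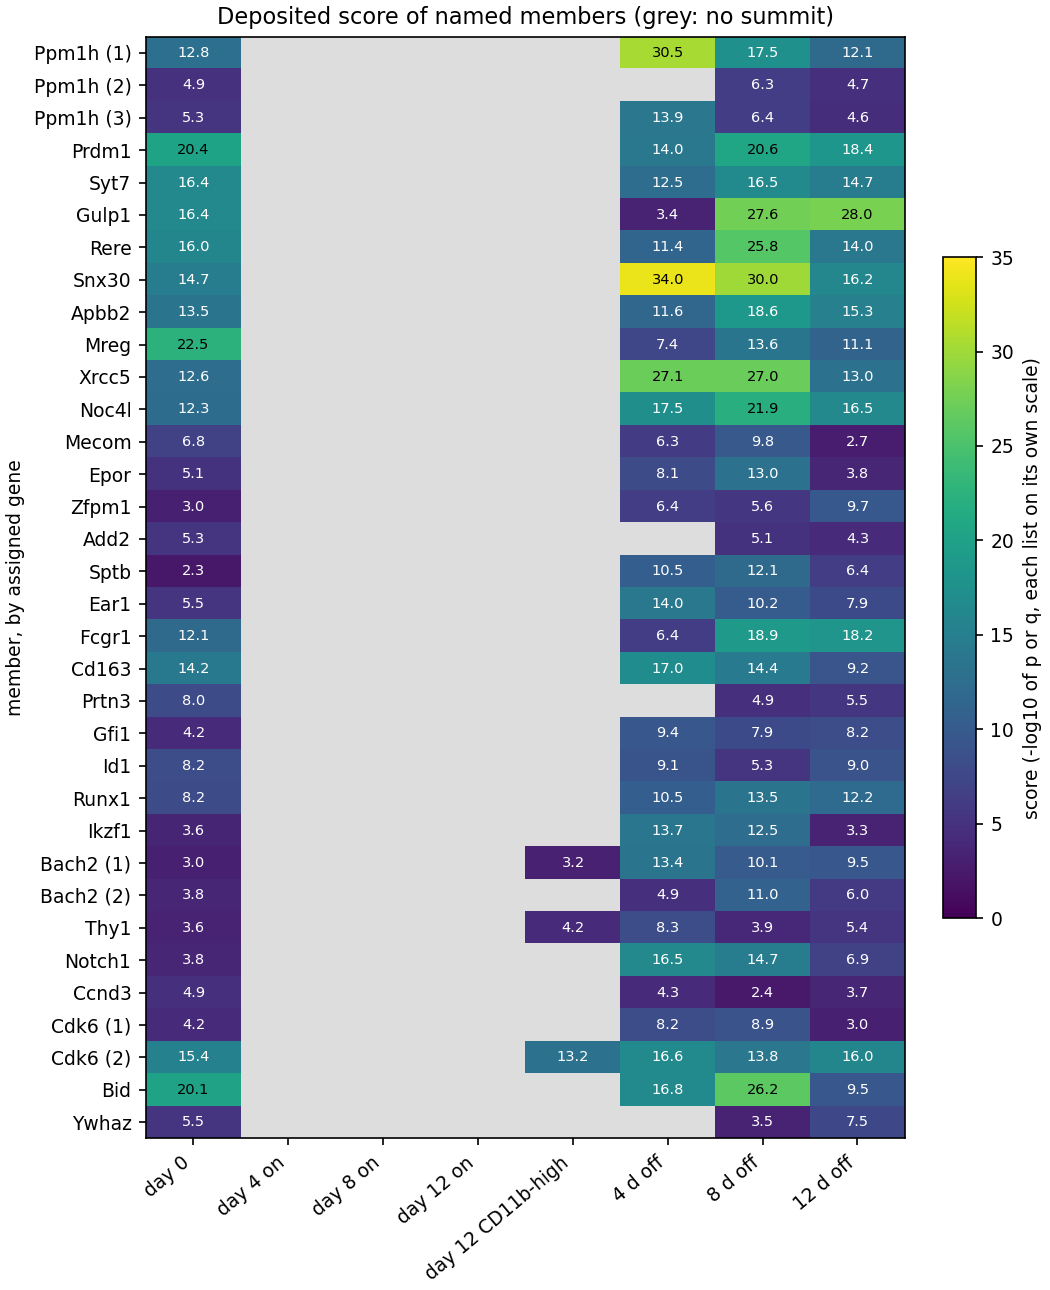
Deposited score (a −log10 p or q; color and number) of named members, by nearest gene, in each of the 8 libraries, with grey for no summit. No member has a summit at day 4, 8 or 12 by the rule. Of the members drawn, Bach2 (3.2), Thy1 (4.2) and Cdk6 (13.2) carry one in CD11b-high cells.

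Of 293 genes in 18 lists of blood lineages and functions, 292 matched the gene table, and 22 of their 1378 regions were members (1.60%, 1.0 to 2.41), beside 1.08% of all regions assigned to a gene. The erythroid list had the highest share, 4 of 47 regions (8.51%, 2.37 to 20.4), at Epor, Zfpm1, Add2 and Sptb, each with 1. Of the 8 erythroid regions lost on Dox, 4 were members and 2 were open at neither later time. The count is small and the lists were chosen with earlier results known, so nothing particular to this list is claimed. Of 47 erythroid list regions, 30 were open at day 0, then 20, 29 and 22 on day 4, 8 and 12 of Dox, 20 in the CD11b-high sort, and 35, 31 and 26 after 4, 8 and 12 days of withdrawal. In the same order, 29, 39, 40, 31, 34, 44, 33 and 27 of 66 monocyte and macrophage regions were open. For 35 B cell regions the counts were 23, 14, 17, 13, 10, 19, 21 and 15. For 59 neutrophil regions they were 25, 32, 34, 27, 28, 46, 38 and 18, and for 78 T and NK cell regions 43, 32, 47, 34, 34, 62, 47 and 37. For 59 housekeeping regions they were 39, 40, 41, 35, 40, 44, 41 and 34. Of all regions, 51.5%, 50.1%, 66.8%, 49.6%, 51.1%, 72.7%, 59.0% and 45.3% were open in that order. The list counts were not corrected for this share. The counts did not follow the presence of Dox in a simple way. The calls at day 0 thus covered marker regions of several lineages, and they do not by themselves check the label of the cells.

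The Epor member, at chr9:21963430-21963789, 33 bp from the gene's start, scored 5.11 at day 0, 8.09 at 4 days off, 13.0 at 8 and 3.76 at 12. It was flagged by a restoration summit 859 bp away, in a region on the far side of the start that was open in all 8 libraries; that neighbour scored 8.85 at day 0, 4.61, 4.79 and 3.10 at day 4, 8 and 12, 2.02 in CD11b-high cells and 7.57, 5.96 and 6.90 off Dox. The 4 lists without a summit at the start still held the one about 1 kb into the gene. Sptb, at chr12:76710026-76710507, scored 2.32 at day 0, then 10.5, 12.1 and 6.39 at 4, 8 and 12 days off, with no restoration summit within 55141 bp. The member 5242 bp from Zfpm1, which encodes the GATA1 partner FOG1, at chr8:122342930-122343278, scored 3.03, 6.41, 5.57 and 9.70 in the same order. The member within Add2, adducin 2 of the red cell membrane skeleton, at chr6:86085566-86085889, scored 5.25, 5.10 and 4.29 at day 0, 8 and 12 days off and was not open at 4 days off. In the day-0 list these erythroid members ranked low, at percentiles 14.4 (Epor), 0.789 (Sptb), 2.25 (Zfpm1) and 15.1 (Add2).

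Among cell cycle genes, 3 of 122 regions were members, at Ccnd3 and Cdk6. The pair at Cdk6 lay side by side at chr5:3342094-3343171 and chr5:3343436-3344285, the second over the start. The region over the start scored 15.4 at day 0, 16.6, 13.8 and 16.0 at 4, 8 and 12 days off and 13.2 in CD11b-high cells. These summits lay 9 bp upstream of the start at day 0 and within 17 bp of it off Dox, but 242 bp downstream in CD11b-high cells. A weaker second summit, with a score of 3.66, lay 307 bp upstream at 8 days off. A neighbouring region 75 bp away, farther into the gene, was open in 7 of 8 libraries, with 35.9, 21.6 and 19.6 at day 4, 8 and 12 on Dox. The member at Ccnd3, cyclin D3, at chr17:47598157-47598560, was weak in every list, with scores of 4.88 at day 0 and 4.34, 2.41 and 3.72 off Dox.

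**Figure D5:**
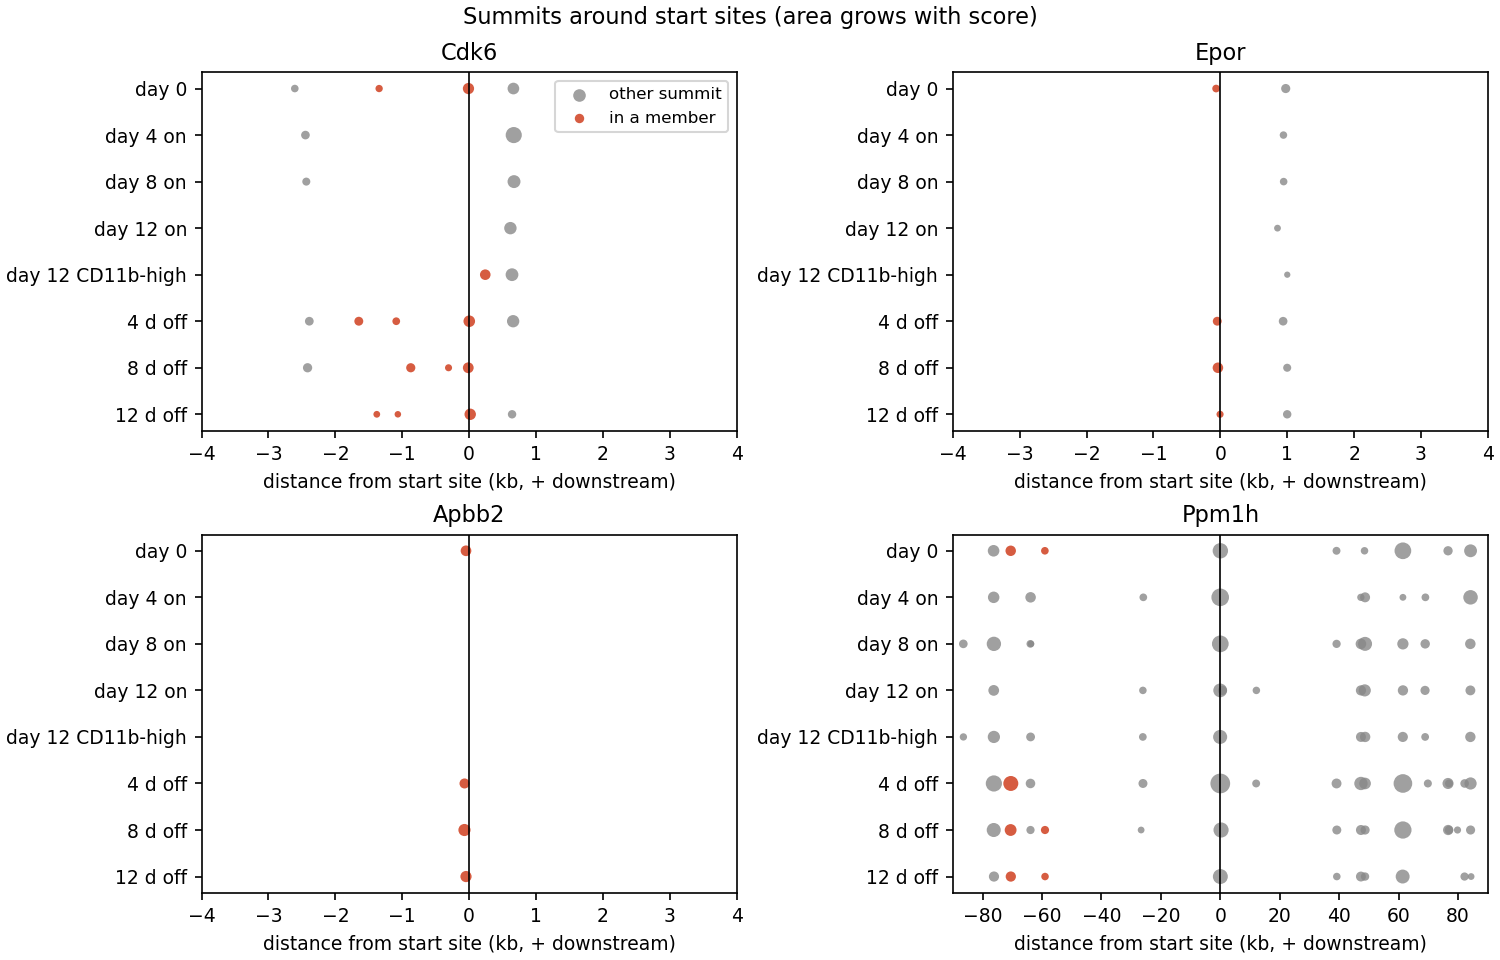
Summits around the start sites of Cdk6, Epor, Apbb2 and Ppm1h in each library by distance from the start in kb, downstream to the right; red summits lie in a member, grey ones do not, and the area grows with the score. At Cdk6 and Epor a grey summit near the start remains at day 4, 8 and 12 while the red ones are missing; the third Ppm1h member lies outside the span drawn.

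Transcription factors of the myeloid list had 3 members in 236 regions, at Id1, Runx1 and Ikzf1. Runx1, a core-binding factor required for blood stem cells, had a member 19441 bp from the gene at chr16:92581767-92582284 that scored 8.16 at day 0, then 10.5, 13.5 and 12.2 at 4, 8 and 12 days off. In Ikzf1, which encodes the lymphoid regulator Ikaros, the member at chr11:11719729-11720108 scored 3.65 at day 0 and 13.7, 12.5 and 3.30 off Dox. The member 1017 bp from Id1, an inhibitor of basic helix-loop-helix factors, scored 8.23, 9.13, 5.34 and 9.0, and a restoration summit lay 947 bp away in a region open in all 8 libraries. The single stem cell list member, in Mecom at chr3:30508363-30508945, scored 6.78, 6.29, 9.82 and 2.73.

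Counts in the myeloid lineage lists were small. Members made up 3.03% of monocyte and macrophage regions (0.369 to 10.5), 3.39% of neutrophil regions (0.413 to 11.7) and 4% of eosinophil regions (0.101 to 20.4). The share over all regions assigned to a gene was 1.08%, inside each of these intervals. The mast cell and dendritic cell lists had no member. At 66 monocyte and macrophage regions, members were found near Fcgr1, the high-affinity IgG receptor, 35015 bp away at chr3:96328667-96329302 (12.1 at day 0, 6.35, 18.9 and 18.2 off Dox), and in Cd163, a haemoglobin scavenger receptor, at chr6:124320401-124320754 (14.2, then 17.0, 14.4 and 9.23). The Cd163 member had a restoration summit 738 bp away, in a region open in all 8 libraries. At 59 neutrophil regions members were found in Prtn3, a granule protease, and in Gfi1, a transcriptional repressor. The Prtn3 member was not open at 4 days off and scored 8.05, 4.85 and 5.55 at day 0, 8 and 12 days off. The Gfi1 member scored 4.22 at day 0 and 9.45, 7.93 and 8.21 off Dox, and a restoration summit lay 332 bp away. The eosinophil list had 1 member in 25 regions, near Ear1.

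Lymphoid genes were represented by Bach2, Thy1 and Notch1. Both B cell members lay in Bach2, a repressor needed for germinal centre B cells, at chr4:32289873-32290352 and chr4:32387969-32388308. The first scored 3.05 at day 0, 3.25 in CD11b-high cells and 13.4, 10.1 and 9.48 at 4, 8 and 12 days off; the second scored 3.78 at day 0 and 4.87, 11 and 5.95 off Dox. Of 78 T and NK cell regions, the member near Notch1, a receptor that drives T cell commitment, at chr2:26513164-26513680, scored 3.81 at day 0 and 16.5, 14.7 and 6.93 off Dox. The member near Thy1 scored 3.55, 8.29, 3.92 and 5.38 in that order, with 4.24 in CD11b-high cells. These lymphoid members all ranked below the 7th percentile at day 0.

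The BCL2 family had 1 member in 89 regions, inside Bid, a BH3-only death agonist, at chr6:120911632-120912021, with 20.1 at day 0 and 16.8, 26.2 and 9.50 off Dox. The housekeeping list had 1 in 59, near Ywhaz. No member was found at 85 megakaryocyte, 64 mast cell, 76 dendritic cell, 44 interferon response, 106 leukaemia chromatin regulator or 24 non-blood tissue regions, for which the exact upper bounds on the share are 4.25%, 5.60%, 4.74%, 8.04%, 3.42% and 14.2%. The cytokine receptor list's 1 member in 113 was that of Epor.

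At promoters, the highest-ranked member was at Higd1a, a mitochondrial hypoxia-response protein, at chr9:121857488-121857848. It scored 55.6 at day 0, 50.9 in CD11b-high cells, 57.1 at 8 and 45.1 at 12 days off, with no summit at 4 days off. A neighbouring region 5 bp away was open on day 4, 8 and 12 of Dox and at 4 days off, with 76.4, 70.3, 45.7 and 65.9, so a strong summit was called at this promoter in all 8 libraries and only its position separated the lists. At Caprin1 the member was open in CD11b-high cells with 21.5, and a region 13 bp away was open at day 4, 8 and 12 with 24.9, 22.1 and 7.91, the last below the median of its list. At the start of BC062258 by Pgm1, a region 16 bp away scored 27.9, 28.4 and 28.7 at those times. At these promoters the lists differed in where the summit was placed, and a missing member does not mean that no summit was called there on Dox. Apbb2, Pitx3 and the noncoding starts near Patj and Mrtfb were the promoter members among the first 10 by rank with no restoration summit within 1 kb; Rcor2, B3gnt5, Cdk6 and the start near Pde2a had one. Pitx3 scored 12.7 at day 0 and 8.13, 13.4 and 8.49 off Dox. Hes6, which was chosen after its values were seen, scored 13.7 at day 0 and 18.6, 19.6 and 7.51 off Dox, with a restoration summit 818 bp away. Pde4a, a cAMP phosphodiesterase, was the third member open in CD11b-high cells by day-0 rank, with 22.3 at day 0, 7.46 in CD11b-high cells and 32.4, 23.1 and 20.2 off Dox. Here too a neighbouring region, 80 bp away, was open on Dox, with 19.6, 25.8 and 16.9 at day 4, 8 and 12.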

How the data were processed

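ATAC-seq summit lists of 8 libraries, 1 per group, were analysed. Per the submitters' processing notes the authors used MACS2 and Picard 2.14.0 on mm10; no source used here names the aligner or the read depth. The authors' score per summit was taken as a −log10 p or q, since each list begins near a threshold of 0.05; the files do not say which. The lists held 31957 to 51175 summits, from which 85 to 121 on unplaced or other contigs were dropped. Peaks were called per library.

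Each summit of chromosomes 1 to 19, X and Y was widened by 150 bp to both sides and overlapping ones were merged (Python 3.11.15, pandas 2.3.3, SciPy 1.17.1); the rule was tested on simulated lists. Each region took its closest protein-coding gene up to 100 kb away, and start sites and sequences came from RefSeq promoters, build GRCm38.p6. Genes to name were those with most members (12), the strongest members without a restoration summit within 1 kb (10), every list gene with a member, promoter members (10) and the 3 strongest open in CD11b-high cells. The members, lists and rules were chosen with earlier results of these data known. The labels also speak of ChIP, but the library preparation described is that of ATAC-seq. Alternatives changed the score minimum, list length, half-width and neighbour filter.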

Additional observations from a re-analysis of the deposited data

How the results depend on the processing

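The number of members was 610 with summits of a score of at least 5, 962 with every list cut to its top 31867 summits, 816 and 721 with half-widths of 75 and 250 bp, and 652 without neighbouring restoration summits. Their identity moved more: 353 of the 761 were overlapped by a member under the score minimum, 401 with lists of equal length, 707 at 75 bp and 715 at 250 bp.

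With lists of equal length, 61.3% of members and 11.6% of lost regions open at neither later time were open at 4 days off, and 14.1% and 9.12% in CD11b-high cells. With 75 bp, the shares at 4 days off were 75.7% and 22.2%, and 15.2% of members lay within 1 kb of a gene end. With the score minimum, 32.3% of the lost regions open at neither time were open at 4 days off. The 5 counts above stayed within 1.5 times of 761, and the other 17 shares within the 95% interval of the reported share; the cause of the moves was not tested. No paired analysis was possible because each group held 1 library and the labels give no replicate numbers. Read depth is unknown, so a closed region and one covered too thinly to be called cannot be told apart. The terciles of day-0 score were added after seeing the data.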

Other observations

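Members were spread over the chromosomes unevenly relative to the lost regions there. On chromosome 4, 27.7% (22.3 to 33.5) of the 264 lost regions were members and on chromosome 16 28.8% (20.4 to 38.6) of 104, against 12.5% (6.83 to 20.4) of 104 on chromosome 14. On the X chromosome 5 of 85 lost regions were members (5.88%, 1.94 to 13.2), beside 19.7% over all lost regions. These 21 chromosomes were looked at together and not tested.

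The promoter of Tfr2, which encodes transferrin receptor 2, lies outside the lists and was picked after its values were seen. Its member scored 6.65 at day 0, 2.82 in CD11b-high cells, and 8.42, 8.25 and 9.58 at 4, 8 and 12 days off. A restoration summit lay 1027 bp away, just past the 1 kb limit. Tfr2 had 2 lost regions, and the other was open at neither 8 nor 12 days off. In Smad3, a mediator of TGF-beta signalling also picked in this way, 2 members scored 6.22 and 9.79 at day 0, 19.8 and 23.0 at 4 days off, 13.9 and 20.6 at 8 days off and 11.7 and 5.81 at 12 days off. Only 1 of these 2 was without a restoration summit within 1 kb.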
